A study of Mus musculus with 49 samples.

Results

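The variable (V) segments of the immunoglobulin light chains were followed in whole mouse kidneys from hours to a year after bilateral ischemia-reperfusion injury (IRI). The deposited table gives expression as FPKM, the fragments of a gene scaled to its transcript length and to the size of the library, and lists 43309 genes, and 101 of them are light chain V segments: 98 of the kappa locus (*Igkv*) and 3 of the lambda locus (*Iglv*). The members were chosen by their measured FPKM: a segment was kept where 3 or more of the 49 libraries listed it at 1 or above. This left 80 members, 77 *Igkv* and 3 *Iglv*, in 19 families. Of the 80 members, 55 also passed this rule within the 18 libraries without IRI, and 25 did not pass it without the injured kidneys, so the levels after IRI helped to choose those 25. Ranked by the third highest FPKM over the libraries, *Igkv14-130* (1.069) and *Igkv5-37* (1.162) lay just inside the threshold, and *Igkv8-16* (0.8166) and *Igkv4-78* (0.566) just outside it. The 21 rows left out reached at most 8.16 FPKM in any library and 3 of them were listed at 0 throughout.

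All mice were of the C57BL/6NCrl strain, and the operated ones were males, 10 to 12 weeks old at surgery. IRI was a 21-minute clamping of both renal pedicles, and kidneys were taken 2, 4, 24, 48 and 72 hours, 7, 14 and 28 days, and 6 and 12 months later (IRI2h to IRI12m, 3 kidneys each and 4 at 6 months). Sham surgery kidneys were taken after 4 hours, 24 hours and 12 months (SHAM4h, SHAM24h and SHAM12m, 3 each), and mice with no surgery were 3, 9 or 15 months old (NORM3m, NORM9m and NORM15m, 3 each). Operated mice were anesthetized with ketamine and xylazine, and no transgene is named for any group. One SHAM12m kidney carries an IRI source label but is a sham by its title, its description and its surgery field, and was taken as one.

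A light chain is made when a B-cell precursor joins 1 of many V segments to a short J segment, next to a kappa or a lambda constant region. Each B cell, and each antibody-secreting plasma cell that descends from it, transcribes essentially the segment it joined, so the mixture of V transcripts in a tissue follows which B and plasma cells it holds and how much light chain mRNA each makes. Germinal centres and tertiary lymphoid tissue are sites where a few B cells can grow into large families that share their segments. In a whole-kidney library, more cells that use a segment and more RNA per such cell cannot be told apart, and the table holds no V-J junctions, so no clone was counted.

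The mouse kappa segments lie on chromosome 6, where the rows of this table span chr6:67555497-70704177, and the lambda segments on chromosome 16, chr16:19085017-19260859 (GRCm38, positions from the GENCODE M21 annotation). Of the members, 79 are annotated there as V genes, 31 on the plus strand and 48 on the minus strand, and *Igkv2-109* is not in that release. The 3′ ends of 5 segments that headed the list in at least 1 aged or late kidney are printed here because they differ where a segment reaches the antigen-binding loop. Each line gives the last 120 coding bases, 5′ to 3′, with capitals from the conserved cysteine codon to the segment's end, where the antigen-contacting loop CDR3 opens.
Igkv3-4 (chr6:70672258-70672377, plus strand): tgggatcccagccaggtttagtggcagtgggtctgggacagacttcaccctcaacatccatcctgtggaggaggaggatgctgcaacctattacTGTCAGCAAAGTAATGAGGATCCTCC
Igkv5-39 (chr6:69900424-69900543, minus strand): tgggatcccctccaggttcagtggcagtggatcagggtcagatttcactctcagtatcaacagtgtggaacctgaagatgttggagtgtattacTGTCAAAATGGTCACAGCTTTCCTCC
Igkv1-110 (chr6:68271148-68271267, plus strand): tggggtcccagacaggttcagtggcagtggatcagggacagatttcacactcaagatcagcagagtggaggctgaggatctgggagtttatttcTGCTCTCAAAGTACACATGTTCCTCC
Igkv4-55 (chr6:69607275-69607394, minus strand): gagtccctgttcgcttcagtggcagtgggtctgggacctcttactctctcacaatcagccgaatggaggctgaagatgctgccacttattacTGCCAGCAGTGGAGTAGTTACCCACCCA
Iglv1 (chr16:19085017-19085136, minus strand): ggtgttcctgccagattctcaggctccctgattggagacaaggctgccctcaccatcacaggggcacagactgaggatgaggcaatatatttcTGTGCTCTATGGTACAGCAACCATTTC

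Summed over the 101 rows, light chain V transcripts were low in 3-month-old mice, higher in older mice without surgery and highest 6 and 12 months after IRI. The 3 NORM3m kidneys held 10.9, 14.3 and 13.1 FPKM, the NORM9m kidneys 154, 81.2 and 132, and the NORM15m kidneys 377, 260.4 and 332. SHAM12m kidneys overlapped with the NORM15m kidneys, at 495, 195 and 229 FPKM. Between 2 hours and 7 days after IRI the sum was between 0.751 and 15.6 FPKM. The lowest group mean was that of IRI48h, with kidneys at 0.865, 0.965 and 0.874. At 28 days the kidneys held 52.5, 108 and 107 FPKM. At 6 months they held 446, 967, 2247 and 10116 FPKM, all above NORM9m, and at 12 months 4898, 2698 and 6899, all above SHAM12m. The mean was 15.8 times that of SHAM12m at 12 months (4831 ± 2101 against 306 ± 164, SD, n = 3 each) and 28.1 times that of NORM9m at 6 months (3444 ± 4512, n = 4, against 122 ± 37.2, n = 3). The 4 IRI6m kidneys were not alike: the highest exceeded the lowest 22.7-fold, and 75 of the 80 members were higher in replicate 4 than in replicate 1. Without replicate 4 the IRI6m mean exceeded that of NORM9m by 1098 FPKM, and with it by 3322. No p was computed for these sums, because they score the members the rule chose.

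**Figure D1:**
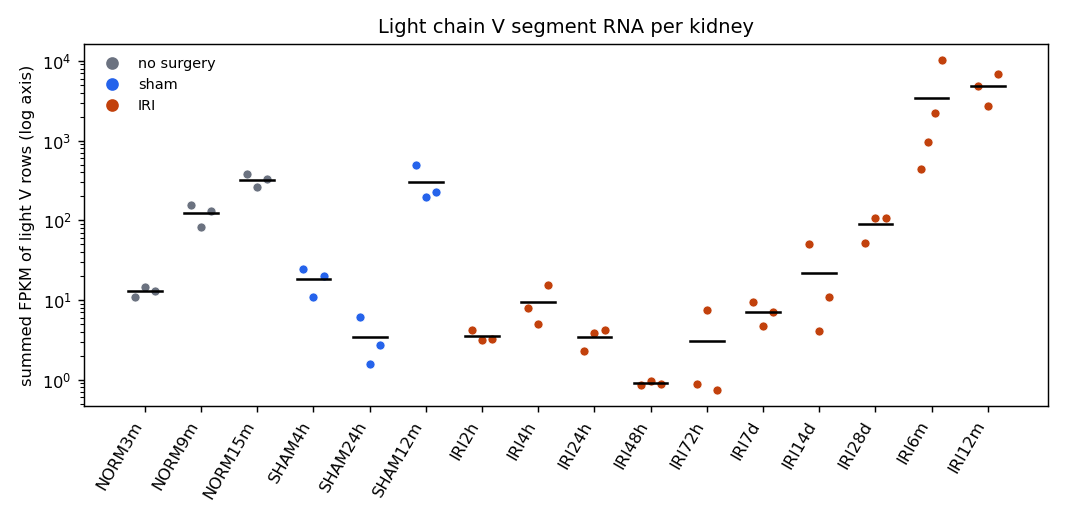
Summed FPKM of the 101 light chain V rows (log axis) in each of the 49 kidneys, by group; each point is 1 kidney and each line a group mean. The sum was below 16 FPKM from 2 hours to 7 days after IRI, between 446 and 10116 at 6 months and between 2698 and 6899 at 12 months.

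The depth behind these values differed. The light V rows held between 11 reads (an IRI72h kidney) and 168596 reads (IRI12m replicate 3), recovered from the steps of the FPKM values, and the IRI48h kidneys held 13 to 16. By total reads the kidneys formed 3 sets. The no-surgery kidneys of all ages and those of IRI6m had 10607679 to 23655726 reads. The 12-month kidneys, sham and injured, had 70062072 to 88412650, and the remaining kidneys 38135247 to 52181057. The ratio of summed V FPKM to *Igkc* FPKM also differed, at 0.320 to 0.626 in NORM9m, NORM15m and IRI6m and 0.645 to 0.874 in SHAM12m and IRI12m, though NORM3m, of the shallowest set, was at 0.696 to 0.889. IRI6m was therefore compared with NORM9m and IRI12m with SHAM12m, each within its set. Any comparison of SHAM12m or IRI12m with the no-surgery groups or IRI6m cannot be told apart from the set.

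Markers of the cells that make light chains were higher 6 and 12 months after IRI, as the V segments were, but did not follow them in every comparison. In NORM15m against NORM3m, 0 of 9 tested B-cell and 4 of 10 plasma-cell markers were higher. There 47 members and 5.47% of all genes were higher. In IRI7d against SHAM24h, 5 of 9 and 4 of 10 were higher, with 0 members and 33.8% of all genes. The mean plasma-cell sum was 126 FPKM in IRI48h and 93.5 in SHAM24h. *Igkc*, the kappa constant gene, was at 430.1 FPKM in SHAM12m and 6006 in IRI12m (log2 difference 3.87, limma adjusted p = 0.0019), and at 276 in NORM9m and 8198 in IRI6m (3.88, adjusted p = 0.0011). Of 9 tested B-cell markers, 9 were higher at 12 months and 5 at 6 months. The summed level of the 13 B-cell markers was 2.45 to 3.44 FPKM in SHAM12m against 13.9 to 92.5 in IRI12m, and 3.52 to 5.64 in NORM9m against 5.27 to 104 in IRI6m. Of 10 plasma-cell markers, 7 and 5 were higher, and their sum was 106 to 187 FPKM in SHAM12m and 309.6 to 622 in IRI12m, and 118 to 151 in NORM9m and 180.3 to 918 in IRI6m. T-cell markers were higher as well (7 of 7 at 12 months and 6 of 7 at 6 months), with sums of 4.46 to 4.69 FPKM in SHAM12m and 13.5 to 35.9 in IRI12m, and of 6.46 to 7.82 in NORM9m and 14.8 to 77.7 in IRI6m. The 7 markers of B-cell precursors summed to 1.22 to 1.47 FPKM in SHAM12m and 1.53 to 2.25 in IRI12m, and to 2.41 to 3.17 in NORM9m and 1.96 to 3.76 in IRI6m, and the 1 of them that was tested did not pass. Among them *Vpreb2*, a surrogate light chain gene, was listed at 0 in every group, and *Rag2*, a recombinase gene, in every group other than NORM9m. *Rag1*, the other recombinase gene, was above 0 in IRI24h, IRI14d and IRI12m and at 0 in the other groups. Of 3 tested neutrophil genes, 3 were lower at 6 months (median log2 difference -3.58), with sums of 4.75 to 65.7 FPKM over 4 genes in NORM9m and 0.846 to 2.42 in IRI6m, and none passed at 12 months. None of 4 red-cell genes passed at either time, and their sum was 28.9 to 179 FPKM in NORM9m and 117 to 435 in IRI6m. None of 8 tubule and glomerulus genes passed at 12 months, and at 6 months 1 was higher and 2 lower. The part of these cells in the V segment levels was not tested. Over all 49 libraries, the 5 genes other than V segments whose level followed the summed V level most closely were *Igkc* (r = 0.994), *Jchain* (listed as *Igj*, 0.992), *Igha* (0.970), *Ighg2b* (0.961) and *Iglc2* (0.947), a description in which the libraries share depth sets and groups.

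Segment by segment, most members were higher. The mean FPKM was above that of the control group for 79 of 80 members at 12 months and for 79 at 6 months, and the highest of the 16 group means was IRI12m for 42 members, IRI6m for 36 and another group for 2. In IRI12m the member means ran from 0.398 to 1303 FPKM with a median of 26.9, against 0 to 29.1 with a median of 1.97 in SHAM12m. The member median was 25.4 in IRI6m and 0.551 in NORM9m. In a fit with limma over 14895 genes, on the log2(FPKM + 0.1) scale, which understates changes of low genes, 56 members passed as higher and 0 as lower at 12 months, where 8.44% of all genes passed as higher and 0.369% as lower. At 6 months 67 passed as higher and 0 as lower, against 6.25% and 2.07% of all genes. The NORM9m mice had no surgery, and no sham kidneys were taken at 6 months. Surgery and anesthesia therefore cannot be told apart from injury in any comparison of IRI6m with NORM9m. With SHAM12m as the 6-month control, across depth sets, 59 passed as higher, against 30.4% of all genes, and with NORM15m as the 12-month control 69 did, against 20.9%. The 12-month count was 21 with a pseudocount of 0.01, and the 6-month count was 23 in a fit of NORM9m and IRI6m alone. The share of all genes called was not counted under these 2 settings. Of the 55 members that also passed the level rule without IRI, 40 and 48 were called. The median log2 difference of the members was 3.52 at 12 months and 4.42 at 6 months, and that of all genes 0.05 and 0.04. Because the rule kept segments for their levels, these counts and medians describe the members and are no independent evidence of their direction. The replicates are biological replicates by the study's methods.

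*Igkv3-4* was the segment that stood highest. Its FPKM was 1095, 468 and 2346 in the 3 IRI12m kidneys and 8.45, 2.05 and 1.11 in the SHAM12m kidneys. In IRI6m it was 4.71, 75.6, 55.5 and 1412, and in NORM9m 1.38, 1.43 and 5.62. It was 15.4, 12.1 and 4.02 in NORM15m, and no more than 0.565 in any kidney up to 28 days after IRI. The groups did not overlap at 12 months, while at 6 months the lowest IRI kidney lay below the highest NORM9m kidney. The log2 difference was 8.56 (SE 1.03, limma adjusted p = 8.9e-07) at 12 months and 4.96 (SE 0.96, adjusted p = 7.6e-04) at 6 months. Without IRI6m replicate 4 it was 3.54 at 6 months (adjusted p = 0.0061). Since *Igkv3-4* was singled out for its level in IRI12m, these tests are a description of it. By reads, it rested on 34742, 14163 and 59156 reads in IRI12m, and on 40, 459, 211 and 7550 in IRI6m.

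As a share of the light V total, *Igkv3-4* was 22.3, 17.3 and 34.0% in IRI12m, where it ranked first in all 3 kidneys. In SHAM12m its share was 1.71, 1.05 and 0.486%, and its rank 21, 30 and 52. It also ranked first in IRI6m replicates 2 and 4, with 7.81 and 14.0%, but held 1.06 and 2.47% in replicates 1 and 3. In NORM15m its share was 4.08, 4.63 and 1.21%. By share, every IRI12m kidney lay above every kidney of the other 15 groups, of which IRI6m replicate 4 came closest. By level, IRI6m replicate 4 lay between the IRI12m kidneys.

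*Igkv3-4* lies 50.2 kb from *Igkj1*, near the J end of the locus, among close relatives. The 3′ ends of 3 of them are printed to show how they can be told from it, with capitals at the bases that differ from *Igkv3-4* (GENCODE M21, GRCm38, last 120 coding bases, 5′ to 3′).
Igkv3-4 (chr6:70672258-70672377, plus strand): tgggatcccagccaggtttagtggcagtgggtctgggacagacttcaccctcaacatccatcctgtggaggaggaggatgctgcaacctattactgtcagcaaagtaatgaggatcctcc
Igkv3-3 (chr6:70687415-70687534, plus strand): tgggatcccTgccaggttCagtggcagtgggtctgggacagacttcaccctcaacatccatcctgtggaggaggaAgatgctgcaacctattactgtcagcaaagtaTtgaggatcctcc
Igkv3-2 (chr6:70698948-70699067, plus strand): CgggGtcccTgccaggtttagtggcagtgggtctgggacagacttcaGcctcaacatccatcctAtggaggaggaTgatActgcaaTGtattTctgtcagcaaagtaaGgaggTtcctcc
Igkv3-10 (chr6:70573111-70573230, plus strand): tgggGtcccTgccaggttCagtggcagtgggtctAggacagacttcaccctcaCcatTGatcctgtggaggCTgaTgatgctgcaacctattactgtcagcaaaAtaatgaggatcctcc
*Igkv3-3* is 96.7% identical to *Igkv3-4* over these bases, *Igkv3-10* 90.8% and *Igkv3-2* 90.0%. *Igkv3-3*, the most alike of the 8 others annotated, did not reach the member threshold, and it held 47, 4 and 40 reads in the IRI12m kidneys. No 100-base window of the *Igkv3-4* transcript recurs in another light V row. All 7 *Igkv3* members had higher means in IRI12m than in SHAM12m, and 2 of them met the level rule only with the injured kidneys included. *Igkv3-2* was at 102, 217 and 215 FPKM against 1.48, 2.67 and 3.78 in SHAM12m (log2 difference 6.03, SE 0.97, adjusted p = 8.7e-05). *Igkv3-10* was at 28.0, 18.6 and 48.6 against 0.365, 0.313 and 1.08 (5.59, SE 0.72, adjusted p = 2.4e-06). *Igkv3-12* was at 12.7, 62.7 and 21.1 against 8.48, 6.51 and 1.71 and did not pass (2.46, SE 0.89, adjusted p = 0.082). The *Igkv3* family together held 26.5, 30.6 and 40.7% of light V FPKM in IRI12m, 6.96, 7.99 and 7.13% in SHAM12m, 6.62, 13.5, 6.15 and 19.6% in IRI6m and 14.3, 13.3 and 6.61% in NORM15m. Apart from *Igkv3-4* and *Igkv3-2*, the highest share of an *Igkv3* member in an IRI12m kidney was 2.32%, of *Igkv3-12*.

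**Figure D2:**
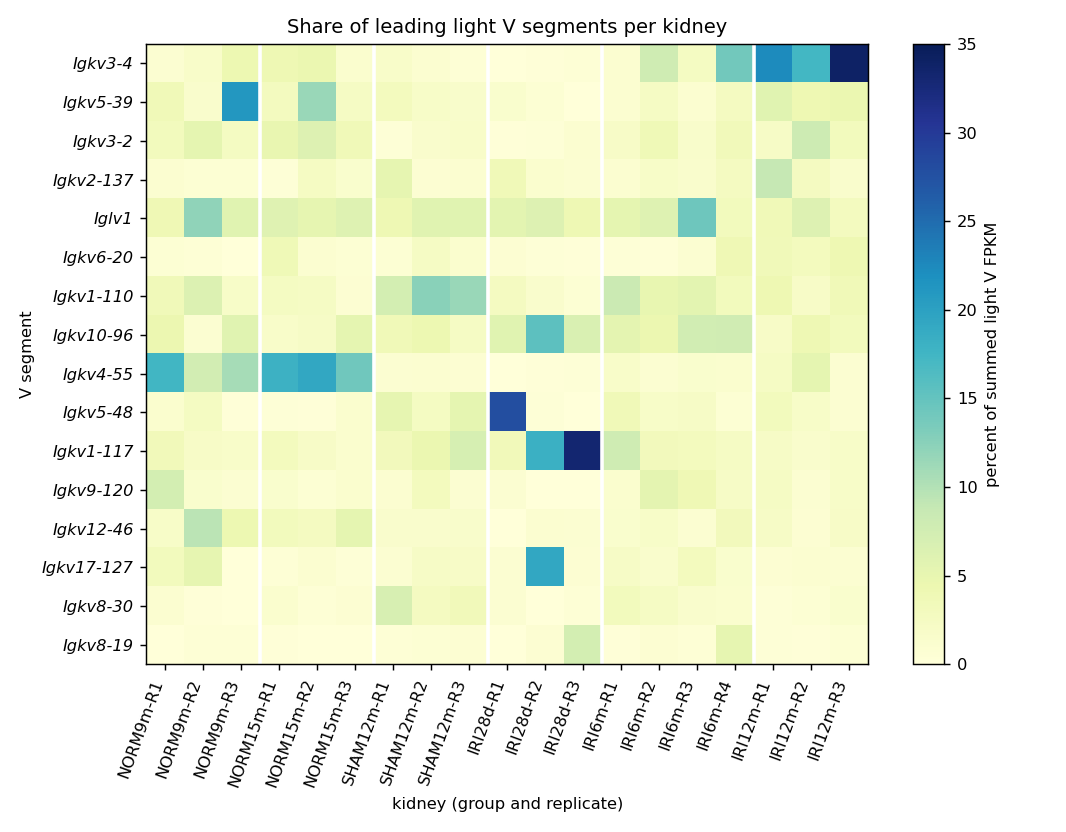
Share of summed light V FPKM (color, percent) for 16 segments in the 19 kidneys of 6 groups; rows are segments and columns kidneys. The row of *Igkv3-4* reaches 17.3 to 34.0% in the IRI12m kidneys, *Igkv4-55* 14.1 to 19.3% in NORM15m and *Igkv1-110* 7.31 to 12.6% in SHAM12m, while the IRI28d kidneys are each led by another segment.

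Other segments reached high levels 12 months after IRI with different kidneys in front. The 10 highest members in IRI12m and the 3 leading segments of each late IRI kidney were named for their levels there. The 12-month and 6-month tests given for them, here and below, are descriptions. *Igkv2-137*, at the far end of the locus, was at 433, 71.4 and 97.5 FPKM against 25.0, 1.498 and 2.45 in SHAM12m (log2 difference 4.95, SE 0.93, limma adjusted p = 5.0e-04), and it was the second segment of IRI12m replicate 1 with 8.84%. *Igkv5-39* was at 282, 112 and 320.0 FPKM against 14.5, 3.48 and 3.57 (5.23, SE 1.18, adjusted p = 0.0030). *Igkv6-20* was at 173, 78.6 and 286 against 3.03, 4.45 and 2.51 (5.56, SE 1.013, adjusted p = 3.4e-04). Of the 100-base windows of *Igkv6-20*, 55.8% recur in *Igkv6-29*, so reads from these windows fit both rows. *Igkv6-29* held 1 read in each IRI12m kidney, where *Igkv6-20* held 5298, 2300 and 6975. *Igkv6-20* was the 1 member with more windows shared than not. Of the 79 members with a sequence, 34 shared at least 1 window with another light V row.

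*Igkv1-110*, the leading segment of all 3 SHAM12m kidneys, was at 36.2, 24.5 and 26.5 FPKM there and at 207, 54.3 and 249 in IRI12m. Its 12-month difference missed the threshold (2.30, SE 0.76, limma adjusted p = 0.052), and it passed without IRI12m replicate 2 (2.98, adjusted p = 0.014). As a share it was lower in each IRI12m kidney, at a mean of 3.28% against 10.5% in SHAM12m. At 6 months *Igkv1-110* was at 36.8, 48.1, 124 and 317 FPKM against 5.28, 5.17 and 2.52 in NORM9m (4.44, SE 0.71, adjusted p = 6.1e-05). *Igkv10-96* differed at both times: 95.3, 108 and 213 FPKM in IRI12m against 17.7, 8.30 and 5.23 (3.81, SE 1.00, adjusted p = 0.011), and 24.3, 43.3, 171 and 783 in IRI6m against 6.77, 0.738 and 7.66 (4.94, SE 0.93, adjusted p = 5.7e-04). The 12-month call for *Igkv10-96* was lost without SHAM12m replicate 3 or IRI12m replicate 3 (adjusted p = 0.063 in both). *Igkv8-19* was carried by 1 kidney at 6 months: it was at 0.830, 6.77, 11.1 and 524 FPKM against 0.148, 0.419 and 0.695 (4.90, SE 1.18, adjusted p = 0.0063), and at 3.15 without replicate 4 (adjusted p = 0.058).

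The 3 lambda segments were higher after IRI along with the kappa segments, though not each at both times. *Iglv1*, the lambda segment that dominates the response of C57BL/6 mice to nitrophenyl haptens, was at 175, 168 and 191 FPKM in IRI12m against 20.3, 11.4 and 13.3 in SHAM12m (3.60, SE 0.91, limma adjusted p = 0.0075), and at 23.5, 58.3, 322 and 305 in IRI6m against 6.05, 9.85 and 7.72 in NORM9m (3.79, SE 0.85, adjusted p = 0.0033). Its 3 IRI12m values lay closer together than those of any kappa segment named above. *Iglv3* was at 21.7, 26.6 and 22.1 FPKM in IRI12m against 1.26, 0.380 and 0.390 (5.10, SE 0.95, adjusted p = 4.4e-04). *Iglv3* also passed at 6 months (3.58, adjusted p = 0.0083), and not without NORM9m replicate 1 (adjusted p = 0.053) or replicate 2 (adjusted p = 0.094). *Iglv2* overlapped between groups at 12 months, at 37.0, 5.66 and 29.5 against 12.9, 1.88 and 2.22 (2.24, SE 0.91, adjusted p = 0.14), and passed at 6 months (4.79, SE 0.85, adjusted p = 2.5e-04). The lambda share of light V FPKM was 6.95, 6.98 and 6.97% in SHAM12m and 4.77, 7.41 and 3.51% in IRI12m. It was 5.72, 8.11, 15.2 and 3.48% in IRI6m and 4.35, 12.4 and 7.81% in NORM9m, so the groups overlapped in lambda share at both times.

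A pair of kappa segments are known partners of the heavy chains of phosphatidylcholine-binding B-1 cells, *Igkv4-91* and *Igkv14-126*. *Igkv4-91* was at 18.4, 20.3 and 26.5 FPKM in IRI12m against 1.54, 1.69 and 1.24 (3.77, SE 0.65, limma adjusted p = 1.8e-04). *Igkv14-126* was at 4.30, 3.59 and 7.99 FPKM against 0.368, 0.473 and 0.445, and because it met the level rule only with the injured kidneys included, no test is given for it. Neither was among the 10 highest members. The mean share of light V FPKM of *Igkv4-91* was 0.574% in SHAM12m and 0.504% in IRI12m, and that of *Igkv14-126* 0.170% and 0.112%. In NORM9m and IRI6m the mean shares were 0.258% and 0.428% for *Igkv4-91*, and 0.0379% and 0.231% for *Igkv14-126*.

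**Figure D3:**
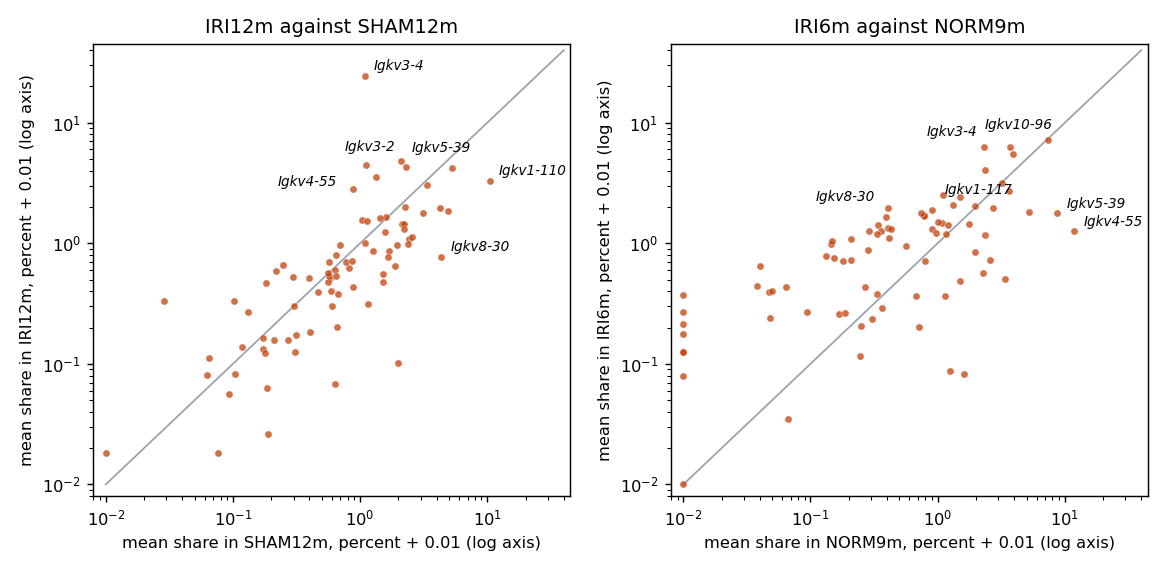
Mean share of light V FPKM of each of the 80 members (percent + 0.01, log axes) in IRI12m against SHAM12m (left) and in IRI6m against NORM9m (right); each point is 1 segment and the line marks equal shares. *Igkv3-4* stands far above the line on the left, at 24.6% against 1.08%, and *Igkv4-55* far below it on the right, at 1.25% against 11.9%.

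Relative use differed more narrowly than level. The mean share of light V FPKM was higher in IRI12m than in SHAM12m for 26 members and lower for 54. The shares of a kidney add up to the whole, so a large gain of 1 segment lowers the others by construction. The losses are therefore not separate from the gain of *Igkv3-4*. The 3 largest gains in mean share were 23.5 percentage points for *Igkv3-4*, 3.31 for *Igkv3-2* and 2.75 for *Igkv5-39*. The 3 largest losses were -7.20 for *Igkv1-110*, -3.58 for *Igkv8-30* and -3.08 for *Igkv1-117*. From NORM9m to IRI6m the largest gain was again *Igkv3-4*, with 4.02 points, and the largest loss *Igkv4-55*, with -10.6 points. The *Igkv1* family held 21.0, 19.1 and 20.6% in SHAM12m and 8.34, 5.003 and 6.56% in IRI12m. By position, the rows nearer the J segments (53 of 96 placed rows, within 1592 kb of *Igkj1*) held 68.3 to 76.9% of kappa V FPKM in IRI12m, 53.0 to 53.9% in SHAM12m, 70.3 to 70.8% in NORM15m and 52.9 to 62.9% in IRI6m. *Igkv3-4* is 1 of these rows.

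Evenness was measured per kidney as the effective number of segments, the inverse Simpson index, which is the number of equally used segments that would give the same concentration. It was 29.1, 26.5 and 27.7 in SHAM12m and 13.7, 18.3 and 7.78 in IRI12m, where the groups did not overlap. In IRI6m it was 31.1, 33.3, 23.3 and 22.6, against 17.9, 20.01 and 11.8 in NORM9m, which is the opposite direction. The directions hold for these controls: across depth sets, IRI6m differed by -0.186 from SHAM12m, and IRI12m by -4.33 from NORM15m, whose kidneys had 17.8, 14.8 and 20.2 and overlapped with IRI12m. IRI28d kidneys had 10.1, 9.53 and 6.10. Taking out a kidney's most used segment raises the index by construction, and *Igkv3-4* was that segment in IRI12m and not in SHAM12m. With each kidney's own most used segment removed, IRI12m had 26.2, 27.8 and 33.8 and SHAM12m 29.6, 34.8 and 34.4, so the groups overlapped, while IRI6m had 33.2, 35.6, 32.7 and 29.8 and NORM9m 26.8, 21.9 and 15.5, which did not. With *Igkv3-4* alone removed, SHAM12m had 28.4, 26.0 and 27.4 and overlapped with IRI12m. Both removals were chosen after seeing the data. At 6 months the removal of *Igkv3-4* gave 30.6, 35.6, 22.4 and 29.8 in IRI6m and 17.6, 19.4 and 11.1 in NORM9m.

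Thinned to 400 light V reads, which 20 kidneys reached and 29 did not, the expected number of different segments was 57.3, 63.1 and 63.1 in SHAM12m and 56.8, 58.7 and 58.2 in IRI12m, which overlapped. It was 62.4, 62.8, 63.7 and 58.1 in IRI6m, all above the 54.0, 51.7 and 45.2 of NORM9m, and 48.7, 49.2 and 44.98 in IRI28d. The 5 most used segments held 29.9 to 33.0% of light V FPKM in SHAM12m, 41.0 to 49.5% in IRI12m, 28.7 to 35.8% in IRI6m and 48.7 to 71.0% in IRI28d. No p was computed for these scores over the members.

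**Figure D4:**
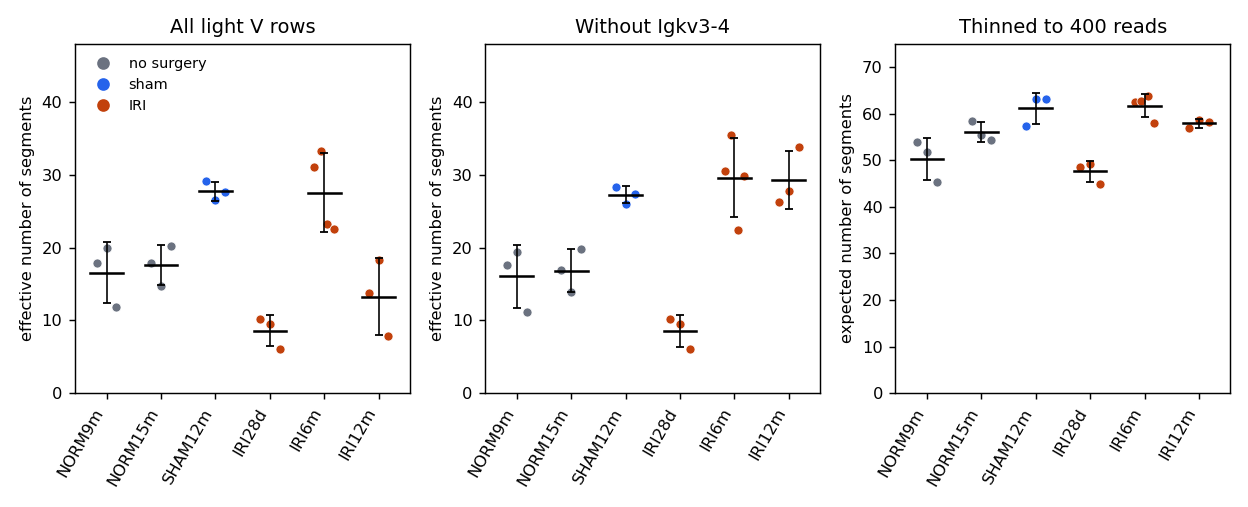
Effective number of light V segments per kidney over all 101 rows (left) and without *Igkv3-4* (middle), and the expected number of segments in 400 reads (right); points are kidneys, lines and bars mean ± SD. IRI12m lies at 7.78 to 18.3 on the left, below SHAM12m at 26.5 to 29.1, and at 26.2 to 33.8 in the middle, where the groups overlap.

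Kidneys of one group resembled each other in segment use to different degrees. The percent of light V FPKM that a pair of kidneys shared, segment by segment, was 68.8 to 73.7 among the IRI12m kidneys, 64.1 to 75.3 among SHAM12m, 59.4 to 69.4 among NORM15m, 52.2 to 67.7 among IRI6m, 40.4 to 51.9 among NORM9m and 29.9 to 46.4 among IRI28d. Between SHAM12m and IRI12m it was 49.4 to 57.7, below every pair within either group. Between NORM9m and IRI6m it was 40.01 to 57.1, which covered the range within NORM9m, and between SHAM12m and IRI6m it was 51.3 to 71.3. Between IRI12m and NORM15m it was 43.3 to 61.6, and between IRI12m and IRI6m 48.2 to 65.9. The shared percent weighs the abundant segments most. By Spearman rank correlation of the shares the 12-month groups were not set apart. It was 0.765 to 0.881 between SHAM12m and IRI12m, 0.791 to 0.865 among SHAM12m and 0.860 to 0.868 among IRI12m. These are descriptions over 19 kidneys and 171 pairs that share kidneys and differ in depth.

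Age without surgery brought its own pattern, led by *Igkv4-55*. Its FPKM was 0.129, 0.157 and 0.130 in NORM3m, 26.8, 6.00 and 14.2 in NORM9m and 67.6, 50.2 and 46.9 in NORM15m, so the 3 ages did not overlap. The log2 difference from NORM3m was 5.80 (SE 0.66, limma adjusted p = 8.0e-07) at 9 months and 7.83 (SE 0.66, adjusted p = 3.4e-10) at 15 months. It was the leading segment of all 3 NORM15m kidneys, with 17.9, 19.3 and 14.1%, and of 1 of the 3 NORM9m kidneys. Between 9 and 3 months 16 members were higher and 0 lower, where 8.80% of all genes were higher and 4.65% lower, and between 15 and 3 months 47 were higher and 0 lower, where 5.47% were higher and 3.44% lower. Without NORM15m replicate 3 the 15-month count was 30, and without NORM9m replicate 1 the 9-month count was 9. *Igkv3-2* went from 0.126, 0 and 0 FPKM in NORM3m to 18.4, 16.0 and 11.9 in NORM15m (6.86, SE 0.97, adjusted p = 2.9e-05), and *Igkv12-46* from 0, 0.318 and 0.131 to 11.7, 6.95 and 17.7 (5.74, SE 0.90, adjusted p = 1.3e-04). *Igkv9-124* passed at both ages (3.68 at 9 months, adjusted p = 0.0021, and 5.74 at 15 months, adjusted p = 1.9e-06). The segments named here were chosen by their levels in aged controls or by their p in these comparisons. The age tests given for them are therefore descriptions.

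*Igkv4-55* set the SHAM12m kidneys apart from the aged kidneys without surgery. It was at 4.26, 1.94 and 1.74 FPKM in SHAM12m, a log2 difference of -4.42 from NORM15m (SE 0.66, limma adjusted p = 4.7e-06). Against NORM15m, 7 members were higher in SHAM12m, where 18.2% of all genes were, and 4 lower, where 17.4% were. The higher ones included *Igkv1-110* (2.38, adjusted p = 0.014), *Igkv5-48* (2.90, adjusted p = 0.017) and *Igkv8-30* (2.22, adjusted p = 0.034), and the lower ones *Igkv3-2* (-2.57, adjusted p = 0.037). Sham surgery cannot be told apart from the depth set in this comparison. The segments named were chosen with values of these groups known, so the tests given for them are descriptions. After IRI, *Igkv4-55* was at 108, 141 and 65.5 FPKM at 12 months, above SHAM12m (5.30, SE 0.66, adjusted p = 1.5e-06), and overlapped with NORM15m (0.88, adjusted p = 0.33). At 6 months it was at 7.69, 8.90, 28.4 and 111 FPKM and overlapped with NORM9m (0.71, SE 0.62, adjusted p = 0.57), with -0.08 without IRI6m replicate 4.

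Among the members that met the level rule without IRI, the 12-month and 6-month effects differed for 2, 1 higher at 12 months and 1 lower. This was a test of the difference in limma, adjusted over 14895 genes, where 0.128% of all genes were higher and 0.128% lower. *Igkv4-55* differed more at 12 months (difference of effects 4.59, SE 0.91, adjusted p = 0.012) and *Igkv8-30* less (-5.12, SE 1.13, adjusted p = 0.035). *Igkv8-30* was at 18.5, 15.3 and 92.3 FPKM in IRI12m against 34.4, 5.26 and 7.71 in SHAM12m, and at 13.4, 21.9, 32.8 and 111 in IRI6m against 1.48, 0.175 and 0 in NORM9m. *Igkv9-129* is left out of the count of this test and was named after its values were seen. It was listed at 0 in all 3 NORM9m and all 4 IRI6m kidneys, including the one with 52021 light V reads, and was at 2.17, 20.7 and 10.7 FPKM in IRI12m against 0, 0.0397 and 0.0816 in SHAM12m. It was at 0.134, 2.39 and 0.532 in NORM15m. It met the level rule only with the IRI12m kidneys included, so its values are a description and no test is given for it. The 6-month and 12-month effects use controls of different age, surgery and depth, which cannot be told apart from time in this test.

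**Figure D5:**
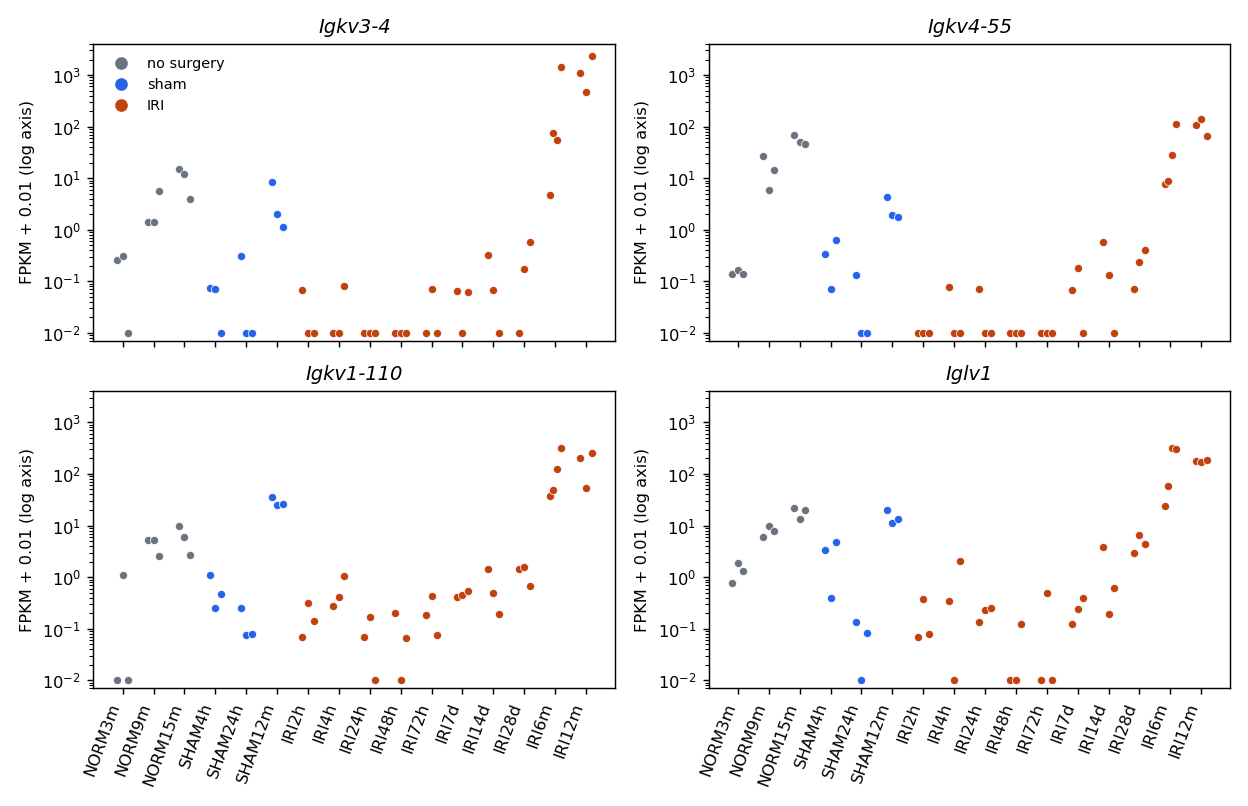
FPKM + 0.01 (log axis) of *Igkv3-4*, *Igkv4-55*, *Igkv1-110* and *Iglv1* in every kidney of the 16 groups; each point is 1 kidney. *Igkv3-4* is at 468 to 2346 FPKM in IRI12m, and *Igkv4-55* is at 46.9 to 67.6 in NORM15m and 1.74 to 4.26 in SHAM12m.

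In the first days the segments were too rare for a profile. At 2 hours 6 members were lower than in SHAM4h and 0 higher, where 17.9% of all genes were lower and 22.1% higher. The share of members called lower was below that of all genes. *Iglv1* was at 0.0600, 0.374 and 0.0681 FPKM in IRI2h against 3.40, 0.376 and 4.89 in SHAM4h (-3.12, SE 0.91, limma adjusted p = 0.0060). *Igkv1-117* was at 0.469, 0.0610 and 0.133 against 4.54, 0.429 and 1.94 (-2.62, SE 0.90, adjusted p = 0.019). For *Iglv1*, SHAM4h replicate 2 lay as low as the highest IRI2h kidney. Without SHAM4h replicate 1 the count of lower members was 1, and without IRI2h replicate 3 it was 2. *Igkv4-91*, *Igkv4-55* and *Igkv8-24* were listed at 0 in all 3 IRI2h kidneys, with group means of 0.698, 0.343 and 0.510 FPKM in SHAM4h. At 4 hours 1 member was lower, *Igkv1-117* (-2.51, adjusted p = 0.034), where 10.5% of all genes were, and at 24 hours 1, *Igkv2-137* (-2.25, adjusted p = 0.045), where 15.4% were. None was higher at 24 hours, where 32.5% of all genes were. Leaving out single kidneys gave 0 to 4 calls at 4 hours, and the 24-hour call was lost without any single SHAM24h or IRI24h kidney. The members named up to 24 hours were chosen by their p in these comparisons, so the tests given for them are descriptions. From 48 hours to 7 days, against SHAM24h, no member passed in limma in either direction. The share of all genes called higher was 28.5% (48 hours), 25.4% (72 hours) and 33.8% (7 days). The share called lower was 23.1%, 23.1% and 14.5%. At 2 hours and from 48 hours to 7 days the sham kidneys were of another time, which cannot be told apart from injury. There were 0 members at an unadjusted p under 0.05 at 48 hours and 7 days and 1 lower at 72 hours. Over the 24 kidneys of NORM3m, SHAM4h, SHAM24h and of IRI up to 72 hours, 14 different segments were the leading one.

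At 14 days 4 members were higher than in SHAM24h, where 30.9% of all genes were, and at 28 days 22 were higher, where 22.3% of all genes were. None was lower at 28 days, where 9.86% of all genes were. Without IRI14d replicate 1, the 1 IRI14d kidney above 11 FPKM of summed light V, the 14-day count was 1, and over all single kidneys left out it was 1 to 8. The share of members called at 28 days was close to that of all genes. Both used 24-hour sham kidneys as the control, so time since surgery cannot be told apart from injury. At 28 days each kidney was led by a segment of its own. *Igkv5-48* held 27.8% in replicate 1 with 14.6 FPKM, against 0.397 and 0.117 FPKM in the others. *Igkv17-127* held 19.2% in replicate 2 with 20.7 FPKM, against 0.450 and 0.833 in the others. *Igkv1-117* held 33.2% in replicate 3 and 18.1% in replicate 2, with 35.6 and 19.5 FPKM, and was at 1.77 FPKM in replicate 1 and 0.0668 to 0.121 in SHAM24h (5.89, SE 0.90, limma adjusted p = 3.05e-06). It is given here for its share in IRI28d, so this test is a description. *Igkv3-4* was at 0, 0.164 and 0.565 FPKM in these kidneys.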

How the data were processed

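Kidney poly(A) RNA was sequenced as unstranded 100-cycle paired reads. The authors aligned reads to mm10 (GRCm38.p3, GENCODE M4) with STAR 2.5.0b, removed duplicates and deposited FPKM values for 43309 genes. The tool that made the FPKM values is not given in the sources used here.

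Values entered limma 3.58.1 (R 4.3.3, trend and robust) as log2(FPKM + 0.1), for the 14895 genes that reached 1 FPKM in 3 or more libraries. All 49 libraries and 16 groups shared 1 fit without covariates, with Benjamini-Hochberg adjustment within each contrast and a threshold of 0.05. The fit was tested on simulated data. Light V reads were recovered from the FPKM steps of 94 of 101 rows, with each row's length chosen to make its low values whole reads. By that choice 100.0% of 1717 low values lay within 0.1 of a whole read, which is no independent check. Library sizes were chosen likewise over all genes with GENCODE M21 lengths, where 65.4 to 77.8% of low values per library were whole.

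Shares, evenness and overlaps are descriptions per kidney. Members and lists were chosen with earlier results of these data known. Members named were the 10 highest in IRI12m, the 5 highest in aged controls, all lambda segments, the 3 leading segments of each late IRI kidney, the largest share changes, those at the threshold, and early or age calls. *Igkv5-48*, *Igkv17-127*, *Igkv9-129*, *Igkv14-126*, *Igkv3-3*, *Igkv3-12* and *Igkv2-109* were named after their values were seen. Germinal centre, lymphoid stroma, macrophage and neutrophil markers at 12 months: 3 of 5, 5 of 5, 3 of 4 and 0 of 3 tested were higher in limma, and at 6 months 1, 3, 2 and 0, with 3 of 3 neutrophil genes lower. Alternatives were normalization, pseudocount, filter, moderation, the samples fitted, a replicate block, leaving out each kidney, and, added after seeing the data, other controls and removal of *Igkv3-4* or of each kidney's most used segment. Sequences and positions came from GENCODE M21 (GRCm38).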

Additional observations from a re-analysis of the deposited data

Results flagged for a closer look

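Within the 4 IRI6m kidneys, 1 value lay far from the others for 9 of the 26 levels and scores examined, by the gap to its nearest neighbour as a share of the whole range. For independent values with a normal spread, chance alone gives about 1 such case in 20. These levels and scores come from the same 4 kidneys and are not independent, so the 9 cases cannot be counted against that rate. Replicate 4 was the high kidney for *Igkv8-19* (gap 0.980 of the range), *Igkv12-46* (0.961), *Igkv6-20* (0.957), *Igkv3-4* (0.950), *Igkv5-39* (0.930), *Igkv3-2* (0.916), *Igkv2-137* (0.898) and *Iglv2* (0.896). Replicate 3 was the high one for *Igkv5-37* (0.871).

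The effect of IRI at 12 months differed from that at 6 months by 4.594 (log2) for *Igkv4-55* and by -5.121 for *Igkv8-30*, each tested as a difference of effects in limma. The effective number of segments was lower after IRI at 12 months (a difference of -14.49 from SHAM12m) and higher at 6 months (11.0 above NORM9m). Against the other late control of each time, across depth sets, the differences were -4.33 at 12 months (NORM15m) and -0.186 at 6 months (SHAM12m), so the opposite directions hold for the first pair of controls. That contrast between the times was not tested, and the controls differ in age, surgery and depth.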

How the results depend on the processing

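The number of members called at 12 months was 56, and 42 to 60 without single kidneys, but 21 with a pseudocount of 0.01. At 6 months it was 67, and 58 to 70 without single kidneys, but 23 in a fit of the 2 groups alone. Quantile normalization gave 3 calls at 4 hours (1 as reported), 1 at 14 days (4) and 11 at 28 days (22). A pseudocount of 1 gave 2 at 2 hours (6), 0 at 4 and 24 hours and 14 days, 6 at 28 days, 8 at NORM9m (16) and 25 at NORM15m (47), and 0.01 gave 4 at 4 hours, 1 at 72 hours, 3 at 7 days and 9 at 14 days. Without a filter on low values there were 2 at 2 hours, 0 at 4 and 24 hours, 1 at 14 days, 14 at 28 days, 10 at NORM9m and 30 at NORM15m. Fits of the 2 groups alone gave 1 at 2 hours, 2 at 4 hours, 24 hours and 14 days, 1 at 48 hours, 9 at 7 days and 30 at NORM15m. The cause was not tested. The share of all genes called was not counted under these settings, without single kidneys or with a replicate block. These counts therefore cannot be set against all genes. Without single kidneys, counts were 1 to 7 at 2 hours, 0 to 4 at 4 hours, 0 at 24 hours, 0 to 1 at 72 hours and 7 days, 1 to 8 at 14 days, 17 to 22 at 28 days, 9 to 20 at NORM9m and 30 to 47 at NORM15m.

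Replicate numbers did not pair the kidneys: 3 of 36 same-number correlations exceeded 0.1 (range -0.204 to 0.187), and 11 were the best of their kidney. A replicate block gave 66 calls at 12 months, 59 at 6 months, 3 at 4 hours, 1 at 72 hours and 7 at 14 days.

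The effective number differed by -14.5 at 12 months (-17.0 to -11.7 without single kidneys), by 2.01 without *Igkv3-4*, by -3.65 without each kidney's most used segment and by -4.33 against NORM15m. At 6 months it differed by 11.0 (8.62 to 12.7) and by -0.186 against SHAM12m. The share of the most used segment differed by 14.1 points at 12 months (9.36 to 17.7), by -1.20 without *Igkv3-4*, by 2.02 without each kidney's most used segment and by 7.45 against NORM15m, and at 6 months by -5.80 (-8.18 to -3.71) and by 0.605 against SHAM12m. The lambda share differed by -1.74 points at 12 months (-2.83 to -0.878) and by -3.59 against NORM15m. At 6 months it differed by -0.0424 (-2.40 to 2.05, with 0.759 without IRI6m replicate 1, 1.51 without replicate 4 and 2.05 without NORM9m replicate 2) and by 1.16 against SHAM12m. Among single segments, *Igkv4-55* at 6 months (-0.077 to 1.22) and *Igkv5-37* at 12 months (-0.63 to 0.94, with -0.30 without SHAM12m replicate 3) turned, and neither was called. *Igkv3-2* at 6 months, *Igkv9-120* and *Igkv9-124* lost calls without single kidneys.

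Light V reads limit the early kidneys: with 11 to 367 reads up to 7 days after surgery, only the most abundant segments are seen, and intervals of recovered reads cover counting error only.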
